A study of Rattus norvegicus with 9 samples.

Results

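The 8 genes described here encode the calcium/calmodulin-dependent kinase CaMKII and the small proteins around it in dendrites. They are the 4 kinase subunit genes Camk2a, Camk2b, Camk2d and Camk2g, the kinase inhibitor gene Camk2n1, the calmodulin genes Calm2 and Calm3, and the neurogranin gene Nrgn. Their values were taken from all probe sets that name only 1 of these genes in the platform's gene table, which gave 15 probe sets of the 31042 analysed. Those 15 probe sets covered 7 of the 8 genes, out of 14217 genes measured. No probe set was paired with Calm3, so Calm3 was not analysed here. Camk2a had 4 probe sets, Camk2d had 3, and Camk2b, Camk2g and Camk2n1 had 2 each, so that 5 of the 7 genes had more than 1. Calm2 and Nrgn rested on 1 probe set each.

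Each of the 9 rat arrays was hybridised with RNA amplified from 1 pool of severed dendrites. The donors were Sprague-Dawley rat embryos of embryonic day 19, and the hippocampal neurons, labelled as pyramidal, had been in dispersed primary culture for 14 days. A pool held 100, 200 or 400 dendrites gathered from many cells, with 3 arrays labelled as biological replicates per pool size, and no pool had been treated. Pool size was thus the only labelled difference between arrays. The comparisons asked whether the signal of a transcript, relative to all others, depended on how many dendrites were collected. Each array received the same amount of amplified RNA by the study's methods, and the values were equalised between arrays. An overall rise of signal with pool size would therefore not show. By the study's account, axons could not be told from dendrites by their shape, so some collected neurites were axons, with most RNA expected from dendrites. The study also states that soma RNA may have contaminated the dendrite samples. In a pool, fewer dendrites that carry a transcript and less of it per dendrite cannot be told apart.

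Calcium that enters a dendritic spine binds calmodulin, and calcium-loaded calmodulin opens the CaMKII holoenzyme, a ring of subunits made from the 4 kinase genes. Once active, subunits phosphorylate their neighbours, so the kinase stays on after the calcium has gone, a step needed for long-term potentiation in hippocampal pyramidal cells. Neurogranin holds calcium-free calmodulin near the membrane through its IQ motif and releases it when calcium rises, and Camk2n1 binds the active kinase and blocks it. The messenger RNAs of Camk2a and Nrgn are textbook examples of transcripts carried into dendrites.

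Values are log2 signals as deposited, and 1 unit is a doubling of signal. A rank below is the percentile of a gene's median rank over the 9 arrays among all 14217 genes. Signals depend on how well each probe binds, so a rank is a rank of signal and not of the amount of RNA. The 9 arrays correlated with each other at a Pearson r of 0.678 to 0.877 over probe sets (36 pairs). Replicate 1 of the 400-dendrite pools had the lowest mean correlation with the other arrays, 0.749, followed by replicate 1 of the 100-dendrite pools at 0.777. The hybridisation control spots of these 2 arrays were also the brightest, with means of 13.3 and 13.9 against 11.6 to 12.4 on the other 7. Of 10 pyramidal neuron markers, 9 were measured, with a median percentile of 80.3. The 9 astrocyte markers measured had a median percentile of 77.1, and the 4 measured genes of the cell body and nucleus one of 86.0.

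By the median over the probe sets of a gene, neurogranin, calmodulin and the gamma subunit gave the brightest signals of the group. Nrgn stood at percentile 99.4, Camk2g at 97.9 and Calm2 at 97.7, which put 3 of the 7 genes in the top 5% of signals (5.01% of all genes by the same rule). Camk2b followed at 89.0. Camk2n1 at 34.1, Camk2a at 26.3 and Camk2d at 21.1 lay below the middle of all genes. The study listed Nrgn, Calm3 and Calm2 as high in rat on these same arrays, so the places of Nrgn and Calm2 are not independent evidence. The order within the upper 3 and within the lower 3 did not hold on every array, since Camk2g ran from percentile 95.7 to 99.3 and Calm2 from 94.9 to 99.3, while Camk2a, Camk2d and Camk2n1 overlapped throughout. Camk2b stayed between percentiles 74.4 and 93.1, below all values of the upper 3 genes and above all values of the lower 3. Its place depended on the choice of probe sets. With the brightest probe set of each gene Camk2b stood at 97.6, above Calm2 at 95.3, and 4 of 7 genes were in the top 5%. With the brighter part of all probe sets it stood at 97.6, above Camk2g at 94.99 and Calm2 at 94.6, and 2 of 7 were.

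**Figure D1:**
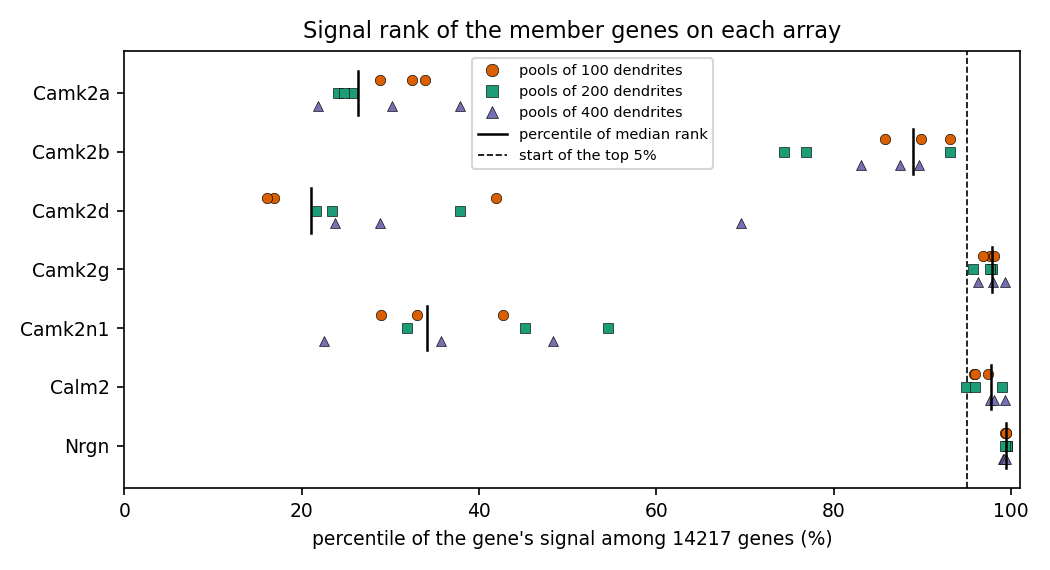
Percentile of each member gene's signal among 14217 genes (horizontal axis, %) on each array, coloured by pool size, with the percentile of the median rank as a black bar and the start of the top 5% dashed. Nrgn, Camk2g and Calm2 crowd at the right edge with median rank percentiles of 99.4, 97.9 and 97.7, and Camk2d spreads widest, from 16.1 to 69.6.

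Nrgn varied little from array to array. Its signal was 12.23, 12.13 and 12.17 in pools of 100 dendrites, 12.37, 12.27 and 12.31 in pools of 200, and 11.79, 12.15 and 12.21 in pools of 400. The mean was 12.18 ± 0.17 (SD, n = 9), and all 9 values lay within 0.58 log2 units. Pools of 200 lay above those of 100 and of 400 without overlap, and the lowest value was that of replicate 1 of the 400-dendrite pools. Bright probe sets as a class vary little on these arrays: of the 500 probe sets nearest to Nrgn in mean signal, 22.2% had a lower SD, and their median SD was 0.23.

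Calm2 varied more from array to array. It measured 10.51, 11.14 and 10.60 in pools of 100, 10.34, 10.58 and 11.99 in pools of 200, and 11.16, 12.33 and 11.38 in pools of 400, a mean of 11.11 ± 0.69 (SD, n = 9). The 3 largest pools all lay above the 3 smallest, by as little as 0.02 log2 units between the nearest arrays, and the middle pools spanned almost the whole range. Among its 500 nearest probe sets in mean signal, 72.4% had a lower SD.

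Of the 4 kinase genes, Camk2g and Camk2b each had 1 bright probe set and 1 dim one. For Camk2g, probe set 1381936_at was among the brightest on the array at 13.91 ± 0.075 (SD, n = 9), percentile 99.9 of all probe sets. It read 13.82, 13.99 and 13.90 in pools of 100, 13.92, 13.97 and 13.82 in pools of 200, and 13.91, 13.84 and 14.02 in pools of 400. All 3 pool sizes overlapped. Only 9 of its 500 nearest probe sets in mean signal, or 1.8%, had a lower SD. The other Camk2g probe set, 1369993_at, averaged 8.46 ± 0.78 (SD, n = 9), percentile 72.3. It read 8.33, 7.82 and 8.84 in pools of 100, 8.62, 8.28 and 7.49 in pools of 200, and 10.15, 7.86 and 8.72 in pools of 400. Replicate 1 of the 400-dendrite pools was 1.31 above the next array, and the pool sizes overlapped.

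Camk2b showed the same split. Probe set 1375575_at measured 11.29, 12.36 and 11.71 in pools of 100, 11.56, 11.06 and 12.50 in pools of 200, and 11.51, 12.05 and 11.76 in pools of 400, with a mean of 11.75 ± 0.48 (SD, n = 9) and percentile 98.3. Probe set 1398251_a_at measured 7.72, 7.64 and 6.53 in pools of 100, 5.36, 6.17 and 7.54 in pools of 200, and 7.41, 6.64 and 6.14 in pools of 400, with a mean of 6.79 ± 0.83 and percentile 28.9. All 3 pool sizes overlapped on both. For Camk2b and Camk2g alike, the brighter probe set was listed in the platform table under an expressed sequence tag and the dimmer under a RefSeq messenger RNA. Where on the transcripts the probes lie was not examined.

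The distance between the brightest and dimmest probe set of a gene was 5.45 log2 units for Camk2g and 4.96 for Camk2b. Among the 4525 genes with more than 1 probe set, these distances stood at percentiles 97.6 and 96.2, against a median of 1.54 over those genes. It was 3.11 for Camk2d, 2.21 for Camk2a and 0.80 for Camk2n1, at percentiles 83.4, 67.8 and 27.0. A gene's value here is the median of its probe sets, so for genes with 2 it lies midway between a bright and a dim reading. For Camk2g the dim probe set had an SD of 0.78 and the bright one of 0.075. Differences of the Camk2g gene value between arrays, in the comparisons below, thus follow almost wholly the dim probe set. Using each gene's brightest probe set instead put Camk2b at percentile 97.6, Camk2g at 99.9, Camk2d at 60.7, Camk2a at 57.6 and Camk2n1 at 45.0.

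Camk2a, the alpha subunit that dominates the holoenzyme in forebrain, had no bright probe set. Its 4 probe sets averaged 8.06 ± 0.53 (1388187_at), 7.44 ± 0.46 (1389824_at), 6.27 ± 0.47 (1368935_at) and 5.85 ± 0.39 (1381637_at), each SD over 9 arrays. In percentiles of all probe sets these were 67.9, 45.2, 15.98 and 7.54. The median over the 4 gave a gene value of 6.81 ± 0.21, with a range of 6.51 to 7.17.

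Camk2d, the delta subunit found in many tissues, ranged as widely. Probe set 1368833_at averaged 8.31 ± 0.72 (SD, n = 9, percentile 69.6), 1368834_at 6.99 ± 0.81 (percentile 26.5) and 1371263_a_at 5.20 ± 0.22 (percentile 1.31). The last was among the dimmest on the array and stayed between 4.82 and 5.59. The gene value of Camk2d was 6.87 ± 0.64, with the highest reading, 8.30, in replicate 2 of the 400-dendrite pools.

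The inhibitor gene Camk2n1 lay near or below the middle of the array on its 2 probe sets. These were 7.55 ± 0.70 for 1389876_at and 6.76 ± 0.85 for 1370853_at (SD, n = 9), at percentiles 56.1 and 34.4, and the gene value was 7.15 ± 0.38.

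The array also carries 27 control probe sets for genes of the bacterium Bacillus subtilis, and whether their transcripts were added to these samples is not given in the sources used here. Their means ran from 5.21 to 9.27, and 12.2% of all probe sets had a higher mean than the brightest of them. Nrgn, Calm2, Camk2b probe set 1375575_at and Camk2g probe set 1381936_at exceeded every such control on 9 of 9 arrays. Camk2d probe set 1368833_at and Camk2g probe set 1369993_at did so on 1 array each, and the other 9 member probe sets on none. Those 9, which include all 4 of Camk2a and both of Camk2n1, thus never exceeded the brightest of these controls, which match no rat gene. By mean signal they still lay above a part of them, from 0% of the 27 for Camk2d probe set 1371263_a_at to 85.2% for Camk2a probe set 1388187_at. The share was 77.8% for Camk2n1 probe set 1389876_at and 74.1% for Camk2a probe set 1389824_at. At this level presence or absence of the transcript was not settled.

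**Figure D2:**
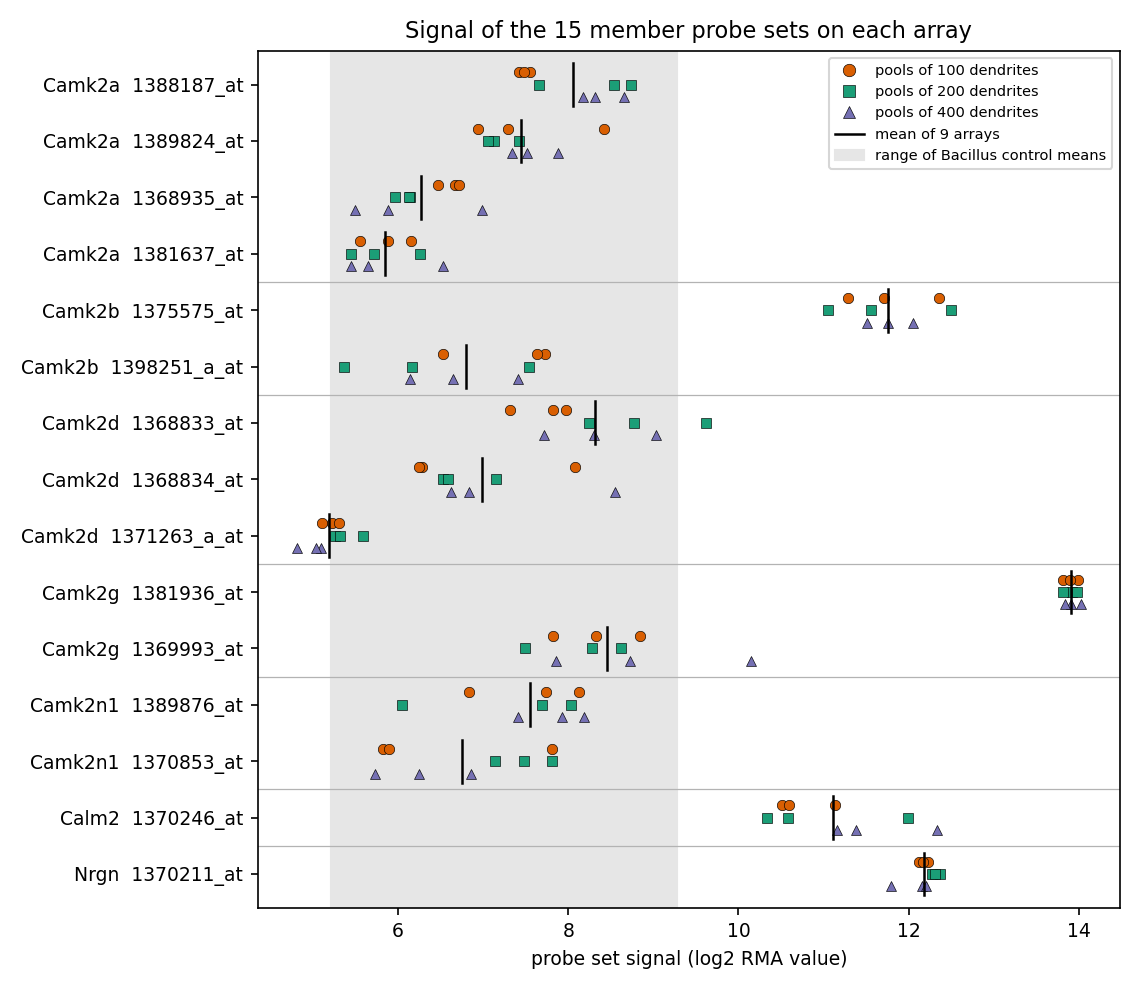
Signal of the 15 member probe sets (horizontal axis, log2) on each of the 9 arrays, coloured by pool size, with the mean as a black bar and the range of the 27 Bacillus control means, 5.21 to 9.27, in grey. Camk2g and Camk2b each have 1 probe set far to the right of the grey band, at means of 13.91 and 11.75, and 1 centred inside it.

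No member gene differed between pool sizes past the threshold. In limma over all 31042 probe sets, 0 had an adjusted p under 0.05 for 400 against 100, 200 against 100 or 400 against 200 dendrites, for the moderated F over the 3 pool sizes or for the slope per doubling of the pool (0% in each). The 15 member probe sets were among them, with 0 called. An unadjusted p under 0.05 was reached by 1 member probe set for 400 against 100 (background 2.21% of all probe sets), by 1 for 200 against 100 (2.87%), by 0 for 400 against 200 (2.04%), by 0 for the F (2.09%) and by 1 for the slope (2.46%). The methods' t-test called 0 after adjustment as well. In the 3 pairwise contrasts it gave 1, 2 and 2 member probe sets at an unadjusted p under 0.05. Over all 31042 probe sets its counts were 800, 1053 and 872. At the level of genes, 0 of 14217 passed in limma, 342, 431 and 327 had an unadjusted p under 0.05, and 0 of the 7 members did. These tests measure the spread between arrays labelled as biological replicates.

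Among the 7 members, the largest difference at gene level for 400 against 100 dendrites was that of Calm2, at 0.88 log2 units (95% interval -0.20 to 1.95, limma unadjusted p = 0.102, adjusted p = 0.999). Its slope was 0.44 per doubling of the pool (-0.08 to 0.95, limma unadjusted p = 0.0896). Without replicate 2 of the 400-dendrite pools the difference was 0.52, and without replicate 1 it was 1.11. Camk2d came next at 0.64 (-0.45 to 1.72), and was 0.11 without replicate 2 of the 400-dendrite pools. Camk2g was 0.30 higher (-0.56 to 1.16), and -0.01 without replicate 1 of the 400-dendrite pools. Its dim probe set differed by 0.58 and its bright one by 0.02. Camk2n1 differed by 0.02 (-0.82 to 0.87), Camk2a by -0.07 (-0.79 to 0.66), Nrgn by -0.12 (-0.83 to 0.58) and Camk2b by -0.29 (-1.29 to 0.71). Without 1 array the Camk2b difference ran from -0.50 to -0.064. Every interval holds 0. Those of Calm2, Camk2d and Camk2g also hold a difference of 1 log2 unit, a doubling of signal, and that of Camk2b holds -1, a halving.

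Differences between neighbouring pool sizes were of like size. From 100 to 200 dendrites the 7 genes ran from -0.51 for Camk2b to 0.33 for Camk2n1, and from 200 to 400 dendrites from -0.31 for Camk2n1 to 0.65 for Calm2. Without 1 array these 4 values ran from -1.004 to -0.23, from 0.13 to 0.55, from -0.54 to -0.063 and from 0.30 to 1.16. The median over the 7 members for 400 against 100 dendrites was 0.02, beside 0.02 over all genes.

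**Figure D3:**
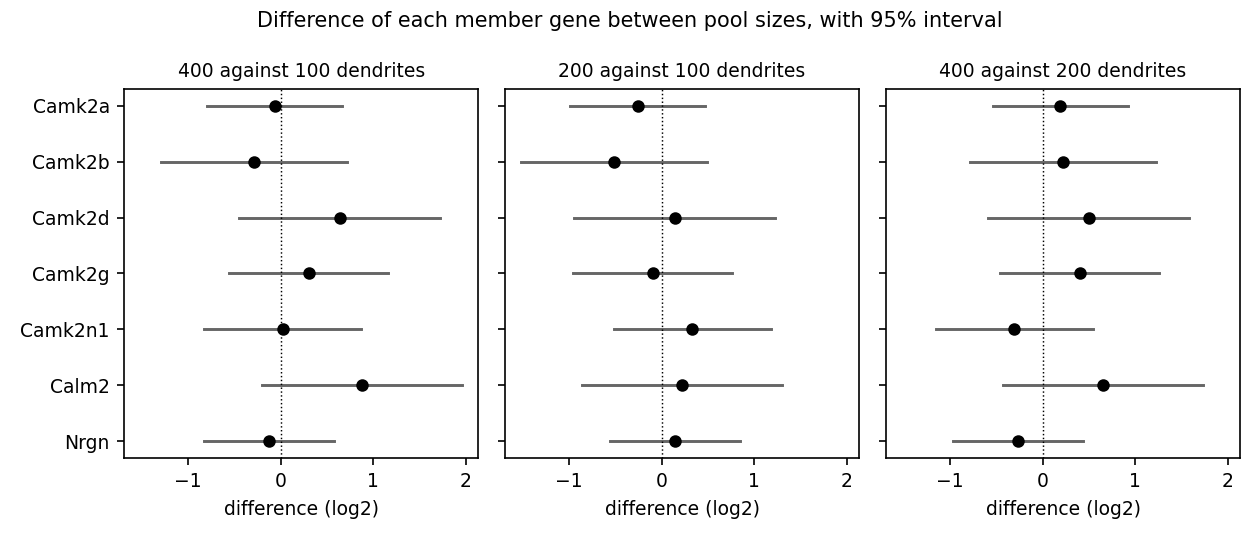
Difference of each member gene between pool sizes (horizontal axis, log2), in 3 panels for 400 against 100, 200 against 100 and 400 against 200 dendrites, with the 95% interval from limma as a line. All 21 intervals cross 0, and the point farthest from it is Calm2 at 0.88 in the first panel.

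Single probe sets separated some pool sizes. For 400 against 100 dendrites, 3 of the 15 member probe sets did not overlap between groups (6.17% of all probe sets did not), namely 1388187_at of Camk2a, 1370246_at of Calm2 and 1371263_a_at of Camk2d. For 200 against 100 it was 4 of 15 (background 7.4%), and for 400 against 200 it was 3 of 15 (6.57%). The 4 were 1388187_at and 1368935_at of Camk2a, 1368833_at of Camk2d and the Nrgn probe set. The 3 were 1371263_a_at, 1370853_at of Camk2n1 and the Nrgn probe set. Of the probe sets named here, 1388187_at, 1368935_at, 1371263_a_at and 1370853_at exceeded every Bacillus control on no array. The mean of 1371263_a_at, 5.20, lay below those of all these controls.

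The brightest Camk2a probe set, 1388187_at, read 7.55, 7.42 and 7.48 in pools of 100, 8.74, 7.66 and 8.54 in pools of 200, and 8.32, 8.66 and 8.18 in pools of 400. All 3 smallest pools lay below all 6 larger ones. The difference of 400 against 100 was 0.90 (0.03 to 1.76, limma unadjusted p = 0.0427, adjusted p = 0.9998). Another probe set of the same gene, 1368935_at, read 6.67, 6.46 and 6.72 in pools of 100, 6.14, 5.96 and 6.13 in pools of 200, and 6.99, 5.50 and 5.89 in pools of 400. The 200-dendrite pools lay below all 100-dendrite pools, and the 400-dendrite pools lay on both sides of them. Its difference of 400 against 100 was -0.50 (-1.43 to 0.44).

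The Camk2d probe set 1368833_at read 7.82, 7.97 and 7.31 in pools of 100, 8.24, 8.78 and 9.62 in pools of 200, and 7.72, 8.30 and 9.03 in pools of 400. Pools of 200 lay above those of 100 by 1.18 (0.13 to 2.23, limma unadjusted p = 0.0310, adjusted p = 0.9998), and the pools of 400 overlapped with both. The other 2 probe sets of Camk2d differed by -0.11 and 0.18 in that contrast.

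How closely probe sets of 1 gene followed each other was read over the arrays. For the 12 pairs of probe sets that share a member gene, Pearson's r over 9 arrays ran from -0.55 (both of Camk2n1) to 0.60 (1368935_at and 1381637_at of Camk2a). None of the 12 passed an exact permutation test over all pairings, two-sided, either before adjustment (smallest p = 0.0916) or after (smallest adjusted p = 0.770). Spearman's rho gave none either (smallest exact permutation p = 0.133, smallest adjusted p = 0.861). Without the 2 arrays farthest from the median of the first probe set, these 2 pairs had r = -0.61 and 0.12. Over the 12 pairs r then ran from -0.77 (1381637_at with 1388187_at of Camk2a, exact permutation p = 0.0411, not adjusted) to 0.69 (1381637_at with 1389824_at of Camk2a, p = 0.0875), against -0.11 and 0.16 over all 9 arrays. The pair of Camk2g correlated at 0.22 and that of Camk2b at 0.37.

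Among the 21 pairs of member genes, 0 passed the exact permutation test after adjustment and 2 had an unadjusted p under 0.05. Camk2a and Nrgn had r = -0.73 and rho = -0.62 (exact permutation p = 0.0187 and 0.0857, adjusted p = 0.233 and 0.758). Camk2a and Camk2g had r = 0.73 and rho = 0.63 (exact permutation p = 0.0221 and 0.0760, adjusted p = 0.233 and 0.758). With the brightest probe set of each gene both directions turned, to r = 0.080 for Camk2a with Nrgn and -0.29 for Camk2a with Camk2g. Leaving out the 2 arrays whose Camk2a lay farthest from its median gave r = -0.94 for Camk2a with Nrgn (exact permutation p = 0.00218, not adjusted). For Camk2a with Camk2g it gave r = 0.36 (exact permutation p = 0.425, not adjusted). Leaving out such arrays narrows the range of Camk2a, which can by itself lower r. Camk2g and Nrgn had r = -0.69 and rho = -0.25 (exact permutation p = 0.0639 and 0.521, adjusted p = 0.447 and 0.758), and r = 0.43 without the 2 arrays of most extreme Camk2g. Replicate 1 of the 400-dendrite pools had the highest Camk2a (7.17), the highest Camk2g (12.03) and the lowest Nrgn (11.79). Its Camk2g peak came from the dim probe set, which read 10.15 there. The bright Camk2g probe set read 13.91 there, inside its range of 13.82 to 14.02. The brightest Camk2a probe set read 8.32 there, below its highest value of 8.74. Without that array the 3 correlations were -0.47, 0.48 and 0.02. This is also the array with the lowest mean correlation with the others and bright hybridisation controls, and the part of either in these relations was not tested.

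**Figure D4:**
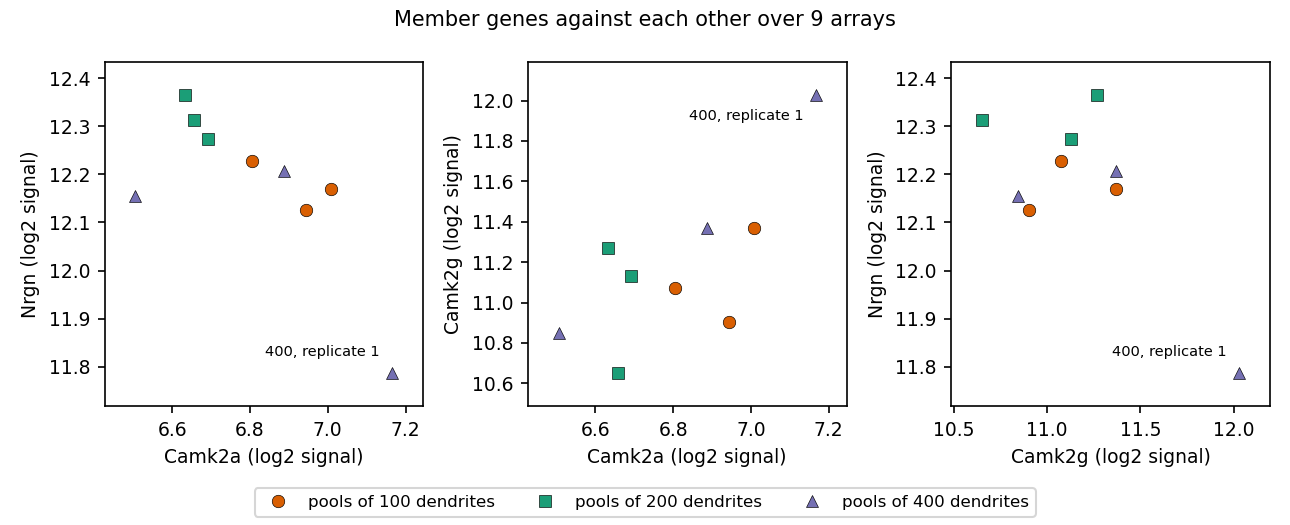
Log2 signals of Camk2a, Camk2g and Nrgn against each other, 1 point per array, coloured by pool size. Replicate 1 of the 400-dendrite pools sits alone in a corner of each panel, with Camk2a at 7.17, Camk2g at 12.03 and Nrgn at 11.79.

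Within pool sizes, where deviations from each pool size's mean were compared, r was -0.74 for Camk2a with Nrgn, 0.82 for Camk2a with Camk2g and -0.62 for Camk2g with Nrgn. Calm2 had r = 0.80 with Camk2b and -0.84 with Camk2g in these deviations, against 0.53 and -0.39 in the values themselves. None of the 21 pairs passed after adjustment in these deviations either. Calmodulin and neurogranin, the binding partners, had over the 9 arrays r = -0.16 and rho = -0.42 (exact permutation p = 0.706 and 0.270, adjusted p = 0.873 and 0.758). Leaving out the 2 arrays with Calm2 farthest from its median gave -0.59.

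The 7 genes were also set against 3 quality measures per array, namely the hybridisation controls and the 3′ minus 5′ signal of Gapdh and of Actb, which ran from 0.84 to 2.99 and from -0.43 to 2.41. None of the 21 relations passed the exact permutation test on r (smallest p = 0.0739, smallest adjusted p = 0.693). On ranks, 3 had an unadjusted p under 0.05 and none an adjusted one. Camk2g against the Actb measure had rho = -0.80 and r = -0.58 (exact permutation p = 0.0138 and 0.101, adjusted p = 0.268 and 0.693). Calm2 against the hybridisation controls had rho = -0.75 and r = -0.52 (exact permutation p = 0.0255 and 0.137, adjusted p = 0.268 and 0.693). Camk2b against the Actb measure had rho = 0.70 and r = 0.62 (exact permutation p = 0.0433 and 0.0739, adjusted p = 0.303 and 0.693). Without the 2 arrays farthest from the median of the quality measure, r in these 3 relations was -0.60, -0.84 and 0.67.

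The genes whose values over the 9 arrays were most like each member's were named by Pearson's r, as a description over 14217 genes that share the same arrays. For Calm2 these were Ran, the small GTPase of nuclear transport, at r = 0.99, Igfbp5, an insulin-like growth factor binding protein, at 0.97 and Gmcl1 at 0.96. Ran was itself bright, at 11.99 ± 0.69 (SD, n = 9) and percentile 99.3. For Nrgn they were Fosl1, a transcription factor of the Fos family, at 0.98, Serpina3m at 0.98 and Nipsnap2 at 0.98. For Camk2g they were Znrd2 (0.96), Mybbp1a (0.96) and the keratin gene Krt13 (0.95). For Camk2a they were Fam76b (0.97), Cenpv (0.96) and Ostm1 (0.96), and for Camk2b Ambn (0.92), Ccne1 (0.92) and Ifitm10 (0.91). Camk2d was closest to Tnmd (0.98), Dhtkd1 (0.97) and Septin9 (0.96), and Camk2n1 to Bnc2 (0.94), Faslg (0.93) and Bag3 (0.93). No member was among the 3 genes closest to another.

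Genes around the kinase were described from 7 lists, and 0 genes of any list passed the threshold in limma in any of the 3 pairwise contrasts, in either direction. Of 13 other calmodulin and CaM kinase genes, 11 were measured, with a median percentile of 58.9 and 0 in the top 5%. The highest were Camkv, a kinase-like protein without known activity, at 8.92 ± 0.39 (SD, n = 9, percentile 83.5), and Camkk1, which activates other CaM kinases, at 9.07 ± 0.78 (82.2). Camk2n2, the relative of Camk2n1 that also inhibits CaMKII, was the lowest at 6.06 ± 0.60 (11.97). Camkk1 and Camk1g had the largest differences of 400 against 100 dendrites, each at -0.48.

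Calcineurin, the phosphatase that calmodulin also activates and that opposes the kinase at synapses, had all 8 of its listed genes measured, with a median percentile of 64.2. Ppp3ca, its alpha catalytic subunit, was at 10.96 ± 0.43 (SD, n = 9, percentile 96.7), followed by the inhibitor Rcan1 at 8.21 ± 0.71 (76.3). Ppp3r2, a regulatory subunit known from testis, was the lowest at 6.01 ± 0.69 (9.47). The differences of 400 against 100 dendrites farthest from 0 were 0.94 for Ppp3cb (-0.24 to 2.11) and 0.58 for Ppp3r1 (-0.48 to 1.63).

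The list of other small proteins with an IQ motif held 3 genes. Pcp4 stood at 10.66 ± 0.62 (SD, n = 9, percentile 97.0), Gap43, the axonal relative of neurogranin, at 8.91 ± 0.14 (84.9) and Pcp4l1 at 6.92 ± 0.29 (28.4). Pcp4 differed by 0.77 between 400 and 100 dendrites (-0.15 to 1.70) and Gap43 by 0.25 (-0.45 to 0.94).

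Partners and substrates of CaMKII, presynaptic ones included, lay higher than most genes, with 16 of the 18 measured above percentile 50 and a median of 77.2. Dlg4, which encodes the scaffold PSD-95, was at 11.42 ± 0.14 (SD, n = 9, percentile 98.2) and Ppp1r9b, the actin-binding spinophilin, at 10.72 ± 0.26 (96.5). Actn2, an actin cross-linker that docks the kinase, was the lowest at 6.89 ± 0.75 (26.7). Stx1a, a syntaxin of presynaptic vesicle fusion, differed by 1.17 between 400 and 100 dendrites (0.14 to 2.20, limma unadjusted p = 0.0298, adjusted p = 0.999). Cpeb1, an RNA-binding protein that governs polyadenylation, differed by -0.98 (-2.68 to 0.71).

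The 16 measured genes of other calmodulin targets, such as enzymes, pumps and transcription activators, had a median percentile of 51.3. Camta2, a calmodulin-binding transcription activator, was the highest at 11.04 ± 0.16 (SD, n = 9, percentile 97.4), then the inositol trisphosphate kinase Itpkb at 9.70 ± 0.19 (92.7). Adcy8, a calmodulin-stimulated adenylyl cyclase, was the lowest at 5.65 ± 0.34 (3.66). Camta1 differed by 0.75 and the calcium pump Atp2b1 by 0.67 between 400 and 100 dendrites.

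Protein kinase C phosphorylates neurogranin and so frees calmodulin. Its 4 measured genes had a median percentile of 74.4, with Prkcb at 84.6, Prkce at 80.0, Prkcd at 68.9 and Prkca at 59.6. Prkce differed by 1.33 between 400 and 100 dendrites (0.11 to 2.55, limma unadjusted p = 0.0348, adjusted p = 0.999), and Prkcd by -0.26.

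Of other transcripts known in dendrites all 14 listed were measured, with a median percentile of 76.7 and 2 in the top 5%. These were Cnih2, an auxiliary protein of AMPA receptors, at 10.94 ± 0.85 (SD, n = 9, percentile 98.2) and Dlg4. Fmr1, which encodes the RNA-binding protein FMRP, was the lowest at 5.91 ± 1.13 (1.84). Arc, an immediate early gene whose RNA is carried to active synapses, read 6.38 ± 0.38 in pools of 100 and 7.58 ± 0.26 in pools of 400, a difference of 1.199 (0.43 to 1.97, limma unadjusted p = 0.00539, adjusted p = 0.999). Cnih2 differed by 1.13 (0.01 to 2.25, limma unadjusted p = 0.0486, adjusted p = 0.999). Over this list the median difference was 0.27, beside 0.02 over all genes, and 10 of 14 genes had a difference above 0, beside 7317 of all 14217. Camk2a and Nrgn, which are also known in dendrites, were kept out of this list as members, and their differences of -0.07 and -0.12 lay below 0. These signs did not hold in every setting. Without 1 array Camk2a ran from -0.22 to 0.11 and Nrgn from -0.20 to 0.0064, and the brightest Camk2a probe set gave 0.90.

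**Figure D5:**
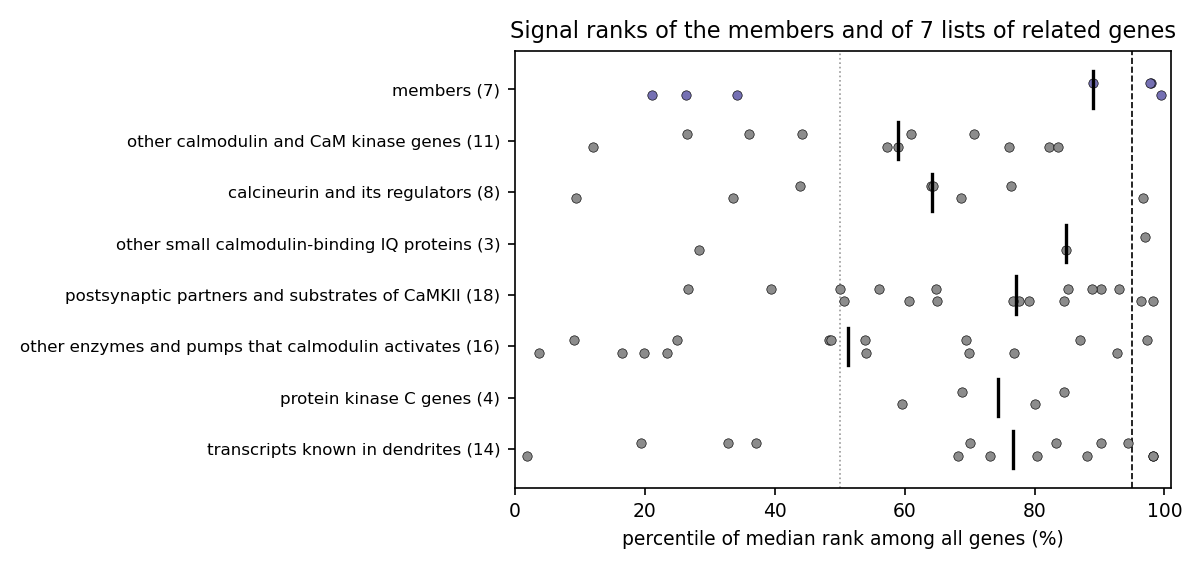
Percentile of median rank (horizontal axis, %) for the 7 measured members and for 7 lists of related genes, 1 point per gene, with the median of each list as a black bar, percentile 50 dotted and the start of the top 5% dashed. The members split into 4 at percentile 89.0 and above and 3 at 34.1 and below.

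Mean levels of the pyramidal neuron markers were 8.73 to 8.89 in pools of 100, 8.92 to 9.10 in pools of 200 and 8.83 to 8.95 in pools of 400. Those of the 9 astrocyte markers were 7.94 to 8.83, 7.03 to 8.50 and 7.39 to 8.66. Of 11 interneuron markers 10 were measured, with mean levels of 7.35 to 7.66 in pools of 100, 6.76 to 7.08 in pools of 200 and 7.32 to 7.56 in pools of 400. Those of the 9 microglia markers were 6.83 to 7.05, 6.92 to 6.95 and 6.68 to 7.21. The pools of 200 thus lay below both other pool sizes in interneuron markers without overlap, and above the pools of 100 in pyramidal markers without overlap. Oligodendrocyte lineage markers also lay higher in pools of 200, at 7.98 to 8.33, than in pools of 100, at 7.85 to 7.96. The other marker lists overlapped between these pool sizes. How often other gene lists of like size separate in this way was not examined, so these separations are a description only. Among the member probe sets, 1370211_at of Nrgn, 1388187_at of Camk2a and 1368833_at of Camk2d lay higher in all pools of 200 than in all pools of 100, and 1368935_at of Camk2a lay lower. Of all probe sets, 7.4% did not overlap in that contrast. Probe set 1388187_at lay higher in all pools of 400 than in all pools of 100 as well. Against the pools of 400, those of 200 lay higher without overlap on 1370211_at of Nrgn, 1370853_at of Camk2n1 and 1371263_a_at of Camk2d. The Camk2n1 and Camk2d probe sets among these exceeded every Bacillus control on no array. Of all probe sets, 6.57% did not overlap between pools of 400 and of 200. The part of these marker differences in the member values was not tested.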

How the data were processed

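Per the labels, the authors summarised each array with RMA 2.0 and deposited the result as log2 signal per probe set. RMA corrects background, equalises the arrays and combines probes. The RNA had gone through several rounds of linear amplification. Their methods also name upper-decile summarising, and a median centring and scaling that is not in these values. The table held 31099 probe sets. The 57 Affymetrix controls were set aside and the other 31042 tested without a filter, of which 20826 named 1 gene, 436 several (0 with a member) and 9780 none in the platform table. Symbols were updated through Entrez IDs. Genes with several probe sets took their median. No column of values was left unused, and mouse arrays were not used here. Precision is limited by the number of arrays.

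Differences were fitted with limma 3.58.1 in R 4.3.3, as group means of the 3 pool sizes over all 9 arrays without a block, two-sided, with Benjamini-Hochberg adjustment over all probe sets or genes and a threshold of 0.05. The fits were tested on simulated data. Correlations used exact permutation over all pairings of arrays in Python 3.11.15 with numpy 2.4.6 and pandas 2.3.3, adjusted within each family. Figures used matplotlib 3.10.9.

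The members and the lists were chosen with earlier results of these data known. The text names all members and their probe sets, of each list the 2 genes of highest and the 1 of lowest percentile and the 2 of largest difference between 400 and 100 dendrites, and per member the 3 genes of highest r. Alternatives were quantile normalization, the methods' scaling (10th to 90th percentile), a filter to the brighter probe sets, other variance moderation, the methods' t-test, a replicate block, leaving out each array, the brightest probe set per gene and the mean in place of the median rank.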

Additional observations from a re-analysis of the deposited data

How the results depend on the processing

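Counts of probe sets, member probe sets and genes past the threshold were 0 under all alternatives run. The replicate numbers pair nothing that the labels name. With the replicate block 0 probe sets passed for any contrast, as without it, so this count cannot show whether arrays are paired. Arrays of the same number had deviations correlated at -0.20 to 0.087 (0 of 9 pairs over 0.1). Taking the brightest probe set per gene turned the difference of Camk2a from 100 dendrites to 0.90 (400) and 0.83 (200), of Camk2n1 to -0.31 (200 against 100) and 0.58 (400 against 200), of Camk2d to -0.53 (400 against 200), and the correlations of Camk2a with Camk2g to -0.29 and with Nrgn to 0.080. It moved percentiles to 57.6 (Camk2a), 97.6 (Camk2b), 60.7 (Camk2d), 99.9 (Camk2g), 45.0 (Camk2n1), 95.3 (Calm2) and 98.8 (Nrgn), with 4 of 7 in the top 5%. Keeping the brighter part of all probe sets moved them to 97.6 (Camk2b), 38.5 (Camk2d), 94.99 (Camk2g), 11.9 (Camk2n1), 94.6 (Calm2) and 98.8 (Nrgn), with 2 of 7 in the top 5%. In both, other probe sets enter the medians and the ranking.

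Leaving out 1 array at a time gave 0 to 1 member pairs correlated past the threshold, the 1 being Camk2a with Nrgn at r = -0.91 without replicate 2 of the 400-dendrite pools. Camk2g with Nrgn ran from -0.80 to 0.025, the latter without replicate 1 of the 400-dendrite pools. The causes were not tested. For 400 against 100 dendrites, differences without 1 array ran from 0.52 to 1.11 (Calm2), -0.22 to 0.11 (Camk2a), 0.11 to 0.98 (Camk2d), -0.0062 to 0.58 (Camk2g), -0.21 to 0.27 (Camk2n1) and -0.20 to 0.0064 (Nrgn). For 200 against 100 they ran from -0.29 to 0.54 (Calm2), -0.058 to 0.49 (Camk2d) and -0.22 to 0.084 (Camk2g), and for 400 against 200 from -0.064 to 0.71 (Camk2b) and -0.029 to 0.81 (Camk2d), so that each of these turned its sign in at least 1 setting except Calm2 and Camk2d for 400 against 100. Probe set 1388187_at ranged over 0.76 to 1.003 and 1368833_at over 0.81 to 1.4996 without 1 array, with unadjusted p of 0.0343 to 0.118 and 0.0152 to 0.138 in limma. Without 1 array, 3 of 7 genes stayed in the top 5%. The remaining differences kept their sign without 1 array, but not their size. With the brightest probe set per gene, 200 against 100 turned for Camk2a and Camk2n1, and 400 against 200 for Camk2n1, as given above. Without 1 array, those for 400 against 200 dendrites ran from 0.30 to 1.16 (Calm2), 0.036 to 0.37 (Camk2a), 0.092 to 0.68 (Camk2g), -0.54 to -0.063 (Camk2n1) and -0.35 to -0.14 (Nrgn). For 200 against 100 they ran from -1.004 to -0.23 (Camk2b), 0.13 to 0.55 (Camk2n1), -0.32 to -0.21 (Camk2a) and 0.12 to 0.17 (Nrgn), and for Camk2b in 400 against 100 from -0.50 to -0.064. Depth has no counterpart on an array, and 9 of 15 member probe sets did not clear the Bacillus controls.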
